A study of Homo sapiens with 12 samples.

Results

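The intermediate filament genes described here were chosen by symbol: the 3 neurofilament chains NEFL, NEFM and NEFH, α-internexin (INA), peripherin (PRPH), vimentin (VIM), nestin (NES) and the keratins KRT8 and KRT18. Of these 9 symbols, 8 had a row among the 14438 genes of the RNA-Seq count table, and PRPH was not analysed here. All 8 were among the 14263 genes tested. The 9 symbols were named with earlier results of these data in view, so the values of these genes are given as descriptions, without p-values.

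HEK293T is a human embryonic kidney line that carries the SV40 large T antigen. In 4 lines of it, EZH2 was introduced by lentivirus and kept under blasticidin selection: wild-type EZH2 (EZH2 WT), the gain-of-function (GOF) mutants EZH2 Y641F and EZH2 A677G, and the loss-of-function (LOF) double mutant EZH2 H689A/F667I. Each had 3 RNA-Seq replicates, 12 in all. The control is thus a line that also carries an EZH2 transgene, every line kept its own endogenous EZH2, and each mutation was represented by 1 selected line that the study's methods call monoclonal, so that mutation and line cannot be told apart. The labels do not say whether the replicates were separate cultures, and p-values then measure only the spread between these samples, which may be technical.

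Intermediate filaments are rope-like polymers of proteins that share a central coiled-coil rod and, unlike actin and microtubules, have no polarity. Their make-up marks cell type: neurofilament chains and INA fill axons, VIM is typical of mesenchymal and cultured cells, NES of neural progenitors, and KRT8 with KRT18 of simple epithelia. EZH2 is the catalytic subunit of Polycomb repressive complex 2 (PRC2), which methylates lysine 27 of histone H3 and is known for keeping developmental and neuronal genes silent, commonly at start sites rich in CpG. HEK293 derivatives are known to express neuronal genes, neurofilaments among them, in spite of their kidney origin.

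The libraries held 32137700 to 44562413 counts. EZH2 transcripts, endogenous and introduced together, were at 154 to 163 counts per 1000000 (CPM, with library sizes scaled by trimmed mean factors) in EZH2 WT, 209 to 228 in EZH2 Y641F, 165 to 182 in EZH2 A677G and 206 to 210 in EZH2 H689A/F667I. One library stood apart: on the first principal component EZH2 Y641F replicate 1 was at 5.6, while the other EZH2 Y641F replicates were at 17.7 and 17.1. EZH2 A677G was at 15.2 to 17.1 and the EZH2 WT and H689A/F667I libraries at -16.3 to -13.8. The members' log2 fold changes of Y641F against WT are therefore also given without Y641F replicate 1. Means, shares and ratios include it. Of 14 kidney markers 6 were tested, with a summed level of 98.8 to 101 CPM in EZH2 WT, 90.9 to 94.1 in Y641F, 91.2 to 91.6 in A677G and 98.1 to 100 in H689A/F667I. PAX2 had a row but was left out of the tests and of this sum, because it had no count in the A677G line or in the H689A/F667I line. The tubule markers UMOD and AQP1 were not among those tested.

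No RefSeq start-site window was held for NEFL, NEFM, NEFH or KRT18, so their starts are not described. Windows (GRCh38.p14, 250 bases before to 50 after the start) were held for the other 5 of the 9 symbols. A pair of them is shown because it sets the neurofilament partner with a CpG-dense start beside the most abundant filament gene of these cells, and CpG density is a known feature of PRC2-bound starts. Capitals mark each CG dinucleotide.
INA: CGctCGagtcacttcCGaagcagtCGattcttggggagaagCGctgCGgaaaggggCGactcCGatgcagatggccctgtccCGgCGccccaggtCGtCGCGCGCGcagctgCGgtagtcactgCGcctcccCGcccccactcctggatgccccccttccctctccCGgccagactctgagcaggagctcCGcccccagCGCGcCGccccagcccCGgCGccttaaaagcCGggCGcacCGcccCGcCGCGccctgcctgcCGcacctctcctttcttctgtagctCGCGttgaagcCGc
VIM: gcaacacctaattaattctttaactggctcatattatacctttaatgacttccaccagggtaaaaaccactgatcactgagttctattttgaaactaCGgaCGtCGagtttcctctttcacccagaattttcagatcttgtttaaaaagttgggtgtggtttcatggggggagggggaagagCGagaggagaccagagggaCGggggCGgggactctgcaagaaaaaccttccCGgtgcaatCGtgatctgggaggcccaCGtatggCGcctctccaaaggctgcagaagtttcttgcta
The INA window (chr10:103276888-103277187, plus strand) held 35 CpG at a GC content of 71.3%, and 87.3% of the 35116 RefSeq windows held as many or fewer. The VIM window (chr10:17227991-17228290, plus strand) held 10 at a GC content of 48.0%, beside a median of 14 over all windows. NES held 14. KRT8 held 2, in a window (chr12:52926420-52926719, minus strand) that lies inside the annotated range of the gene and away from its ends. Other starts of these genes were not looked at. Searched on both strands, the GC box GGGCGG was found in the INA, VIM and NES windows and in 45.0% of all windows. The TATA box TATAAA, found in 11.5% of all windows, and CCAAT, found in 34.6%, were not in the INA, VIM, NES or KRT8 windows.

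Positions are those of GRCh38 with the GENCODE v44 annotation. NEFM (ENSG00000104722.14, chr8:24913758-24919098, plus strand) and NEFL (ENSG00000277586.4, chr8:24950955-24956721, minus strand) are neighbours that lie 31.9 kb apart. NEFH (ENSG00000100285.10) lies on chr22:29480218-29491390. On chromosome 10 the plus strand carries INA (ENSG00000148798.11, chr10:103277138-103290346) and VIM (ENSG00000026025.16, chr10:17228241-17237593). NES (ENSG00000132688.11) lies on chr1:156668763-156677407. The annotated ranges of KRT8 (ENSG00000170421.13, chr12:52897187-52949954, minus strand) and KRT18 (ENSG00000111057.11, chr12:52948871-52952906, plus strand) overlap by their ends on opposite strands.

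To compare levels between genes, CPM was divided by the length in kilobases of the canonical transcript (RPKM). On this scale VIM was the most abundant member with a mean of 120 RPKM over the 12 samples, which ranked at or above 96.5% of all genes with a length. NEFM followed at 41.8, NEFL at 27.9 and KRT18 at 24.6. INA was at 5.18, KRT8 at 2.55, NES at 0.790 and NEFH at 0.153 RPKM. VIM thus made up 53.7% of the members' summed RPKM, and the medium and light neurofilament chains made up 18.8% and 12.5%. The spread between replicates of one line, as the root mean square of the lines' coefficients of variation, was 1.51% for VIM and 4.73% for NEFL, but 12.2% for KRT8, 15.0% for NES and 38.5% for NEFH, which had only 9 to 38 counts a library.

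NEFL and NEFM were lower in every mutant library than in every WT library, furthest in the GOF lines. NEFL encodes the light chain, which forms the filament core and without which the other chains do not assemble well. Its level was 137, 133 and 128 CPM in WT, 83.8, 75.6 and 77.5 in Y641F, 74.7, 68.6 and 76.1 in A677G, and 118, 110 and 119 in H689A/F667I. All WT libraries were above all H689A/F667I libraries, which were in turn above those of both GOF lines, and the GOF lines overlapped with each other. The means were 133 ± 4.68 (SD, n = 3), 79.0 ± 4.29, 73.1 ± 3.99 and 115 ± 4.85 CPM in the same order, and relative to WT the fitted level was 59.4% in Y641F (log2 fold change -0.75, SE 0.0461), 55.0% in A677G (-0.86, SE 0.0463) and 86.7% in H689A/F667I (-0.21, SE 0.0454).

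NEFM encodes the medium chain, whose long tail projects from the filament. It was at 184, 192 and 178 CPM in WT, 143, 107 and 128 in Y641F, 99.2, 81.2 and 92.6 in A677G, and 140, 152 and 144 in H689A/F667I. The A677G libraries were below all others, while the Y641F libraries reached into the H689A/F667I range through replicate 1, the one that stood apart. Means were 185 ± 7.11, 126 ± 18.4, 91.0 ± 9.11 and 145 ± 6.21 CPM (SD, n = 3). Against WT the log2 fold change was -0.55 (SE 0.0625) in Y641F, -1.02 (SE 0.0636) in A677G and -0.35 (SE 0.0624) in H689A/F667I, which are 68.3%, 49.3% and 78.5% of the WT level. The study itself reports NEFM as lower in both GOF mutants, in RNA-Seq and in proteomics. From EZH2 knockout lines it proposes NEFM as a PRC2 target, which was not tested here.

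Without Y641F replicate 1 the log2 fold change against WT was -0.80 (SE 0.0475) for NEFL and -0.65 (SE 0.0585) for NEFM. NEFM was 0.47 log2 units higher in Y641F than in A677G (SE 0.0638), or 0.37 (SE 0.0587) without that replicate, and NEFL was 0.11 higher (SE 0.0469). In bulk RNA, fewer cells that carry a transcript and less of it per cell cannot be told apart. The summed level of the 4 tested neural markers of 12 listed (TUBB3, RBFOX3, GFAP and OLIG2) was 16.2 to 20.1 CPM in WT, 12.6 to 14.7 in Y641F, 13.8 to 16.2 in A677G and 16.6 to 20.2 in H689A/F667I. For the tested adrenal markers, NR0B1 and CHGA (2 of 8 listed), the sum was 2.77 to 3.38, 1.52 to 1.86, 1.5 to 1.62 and 1.78 to 2.46 CPM. Fibroblast markers (5 of 7 tested: COL1A1, COL3A1, LUM, PDGFRA and PDGFRB) summed to 14.3 to 15.7 CPM in WT, 17.7 to 27.4 in Y641F, 15.8 to 17.6 in A677G and 15.5 to 19.1 in H689A/F667I. Members of a sum did not move together. From WT to Y641F mean CPM went from 3.52 to 8.84 for COL3A1 and from 1.33 to 2.47 for LUM. COL1A1 was at 7.32 in both, and PDGFRA (2.49 to 2.31) and PDGFRB (0.533 to 0.303) were lower. GFAP went from 0.385 to 0.644 while TUBB3, RBFOX3 and OLIG2 were lower. NR0B1 went from 2.58 to 1.15 and CHGA from 0.575 to 0.55. The part of these markers in the neurofilament differences was not tested.

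**Figure D1:**
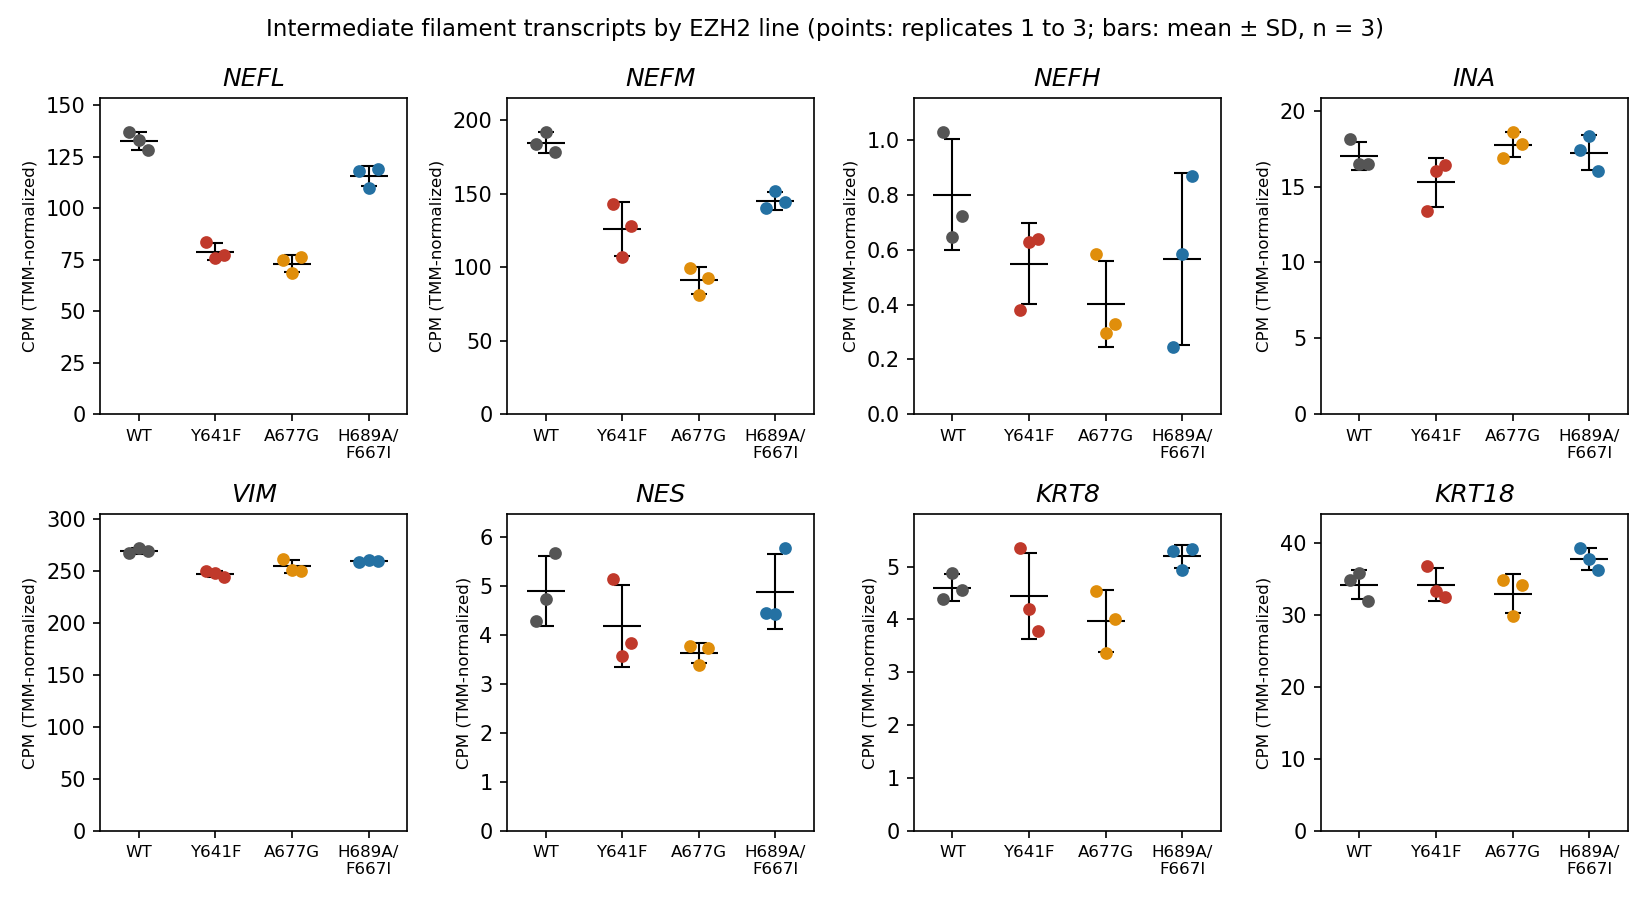
CPM of the 8 intermediate filament genes in each EZH2 line (x axis), with each replicate as a point and the mean ± SD (n = 3) as lines, 1 panel a gene and each y axis starting at 0. NEFL fell from 128 to 137 CPM in the WT libraries to 68.6 to 83.8 in those of the GOF lines, while INA lay between 13.4 and 18.6 CPM and VIM between 244 and 272 in all 12.

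The heavy chain NEFH, which cross-links and spaces axonal neurofilaments, was close to the limit of what these libraries could measure. Its counts were 38, 25 and 24 in WT, 16, 24 and 27 in Y641F, 26, 12 and 12 in A677G, and 9, 23 and 28 in H689A/F667I. The Y641F and A677G libraries were below those of WT once scaled to CPM, and H689A/F667I overlapped with WT. The log2 fold changes of -0.54 (SE 0.383), -0.97 (SE 0.400) and -0.52 (SE 0.390) each had an SE more than 6 times that of NEFM, and none was called at this depth. Without Y641F replicate 1 the first was -0.33 (SE 0.413).

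INA, which copolymerizes with the neurofilament chains in central neurons, did not follow NEFL and NEFM. It was at 18.1, 16.5 and 16.5 CPM in WT, 13.4, 16.0 and 16.4 in Y641F, 16.9, 18.6 and 17.8 in A677G, and 17.4, 18.3 and 16.0 in H689A/F667I. Only the Y641F libraries were all below WT, and there replicate 1 lay well under the other replicates. The log2 fold change was -0.16 (SE 0.0836) in Y641F, or -0.07 without replicate 1, against 0.06 (SE 0.0828) in A677G and 0.02 (SE 0.0836) in H689A/F667I. All Y641F libraries were also below all A677G libraries for INA, with a log2 difference of -0.22 (SE 0.0827), or -0.13 (SE 0.0835) without that replicate.

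Summed per length, NEFL, NEFM, NEFH and INA together gave 99.0 ± 3.17 RPKM in WT, 65.4 ± 6.32 in Y641F, 53.8 ± 3.57 in A677G and 82.0 ± 0.918 in H689A/F667I (SD, n = 3). The libraries ranged over 95.4 to 101, 58.8 to 71.4, 49.8 to 56.5 and 81.0 to 82.8, so the lines did not overlap. Within this sum the share of INA was 5.30% ± 0.266 in WT, 7.27% ± 1.34 in Y641F, 10.2% ± 1.18 in A677G and 6.46% ± 0.429 in H689A/F667I. The NEFM share was 57.0% ± 0.996 in WT, 58.7% ± 2.99 in Y641F, 51.6% ± 1.89 in A677G and 54.1% ± 1.74 in H689A/F667I. Per length, NEFM stood to NEFL as 1.52 ± 0.0543 in WT, 1.74 ± 0.174 in Y641F, 1.36 ± 0.0823 in A677G and 1.38 ± 0.117 in H689A/F667I, with 1.47 to 1.58 in the WT libraries and 1.55 to 1.87 in those of Y641F.

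**Figure D2:**
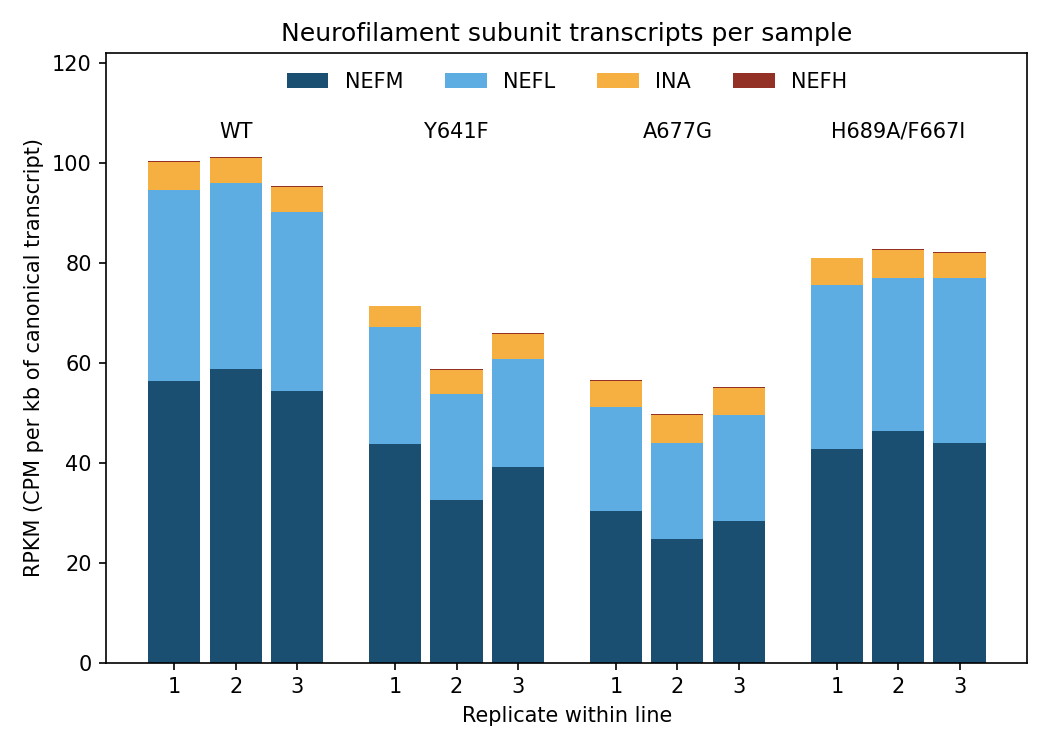
Stacked bars of the RPKM of NEFM, NEFL, INA and NEFH in each of the 12 libraries, grouped by EZH2 line (x axis: replicate; y axis: CPM per kilobase of canonical transcript, from 0). The stacks reach 95.4 to 101 RPKM in WT and 49.8 to 56.5 in A677G, the INA segment is about as tall in every line, and NEFH is too thin to read.

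VIM, the main filament of mesenchymal and most cultured cells, differed little between lines. It was at 267, 272 and 269 CPM in WT, 250, 248 and 244 in Y641F, 262, 251 and 250 in A677G, and 259, 261 and 260 in H689A/F667I. Every mutant library was below every WT library, by a small margin. The fitted level relative to WT was 91.8% in Y641F (log2 fold change -0.12, SE 0.0344), 94.4% in A677G (-0.08, SE 0.0344) and 96.5% in H689A/F667I (-0.05, SE 0.0345), and without Y641F replicate 1 the first was -0.13 (SE 0.0351).

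NES, a large filament protein that assembles together with VIM in dividing progenitors, was at 4.28, 4.74 and 5.67 CPM in WT, 5.14, 3.57 and 3.83 in Y641F, 3.77, 3.39 and 3.73 in A677G, and 4.44, 4.43 and 5.77 in H689A/F667I. The A677G libraries were all below WT, and the other mutant lines overlapped with it. Log2 fold changes were -0.22 (SE 0.157) in Y641F, -0.43 (SE 0.159) in A677G and -0.01 (SE 0.157) in H689A/F667I. Without Y641F replicate 1 the first became -0.40 (SE 0.165).

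KRT8 and KRT18 form the obligate type II and type I keratin pair of simple epithelia. KRT8 was at 4.38, 4.87 and 4.56 CPM in WT, 5.35, 4.20 and 3.78 in Y641F, 4.53, 3.37 and 4 in A677G, and 5.30, 4.94 and 5.34 in H689A/F667I. KRT18 was at 34.9, 35.8 and 32.0 CPM in WT, 36.8, 33.4 and 32.5 in Y641F, 34.8, 29.8 and 34.2 in A677G, and 39.3, 37.8 and 36.2 in H689A/F667I. For both keratins the H689A/F667I libraries lay above the WT libraries and the GOF libraries overlapped with WT. The log2 fold changes in H689A/F667I were 0.17 (SE 0.149) for KRT8 and 0.14 (SE 0.0637) for KRT18, against -0.05 (SE 0.149) and 0.00 (SE 0.0636) in Y641F and -0.21 (SE 0.151) and -0.06 (SE 0.0638) in A677G. Without Y641F replicate 1 the Y641F values were -0.21 (SE 0.156) for KRT8 and -0.06 (SE 0.067) for KRT18. Per length, KRT18 stood to KRT8 as 9.4 ± 0.6 in WT, 9.86 ± 1.09 in Y641F, 10.6 ± 0.777 in A677G and 9.19 ± 0.573 in H689A/F667I (SD, n = 3). Both keratin values are uncertain, since the annotation holds 51 pseudogenes named after KRT8 and 68 named after KRT18, which could share reads with them, while the neurofilament chains have 1 each and INA, VIM and NES have 0.

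Against WT, the edgeR quasi-likelihood fit called 3 of the 8 members lower in Y641F (NEFL, NEFM and VIM), where 7.68% of all genes tested were called, 5.59% lower and 2.09% higher. It called 2 lower in A677G (NEFL and NEFM; 8.55% of all genes called, 6.48% lower and 2.07% higher) and the same 2 in H689A/F667I (0.301% called, 0.161% lower and 0.14% higher). Nothing is read from these counts, because the members were chosen with such results known. Libraries lay wholly below WT for 5 members in Y641F (NEFL, NEFM, NEFH, INA and VIM; 11.7% of all genes tested), for 5 in A677G (NEFL, NEFM, NEFH, VIM and NES; 14.7%) and for 3 in H689A/F667I (NEFL, NEFM and VIM; 7.14%). They lay wholly above WT for KRT8 and KRT18 in H689A/F667I, where 7.89% of all genes did, and for 0 members in Y641F (9.28%) and A677G (12.5%). The NEFL and NEFM calls in both GOF lines stayed in all 10 other settings and without any single library. In H689A/F667I the NEFL call was lost without WT replicate 1 or 2 or H689A/F667I replicate 1 or 2, and the NEFM call with DESeq2 and without WT replicate 2 or H689A/F667I replicate 1, while the VIM call in Y641F was lost when only Y641F and WT were fitted and without WT replicate 2 or Y641F replicate 3.

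**Figure D3:**
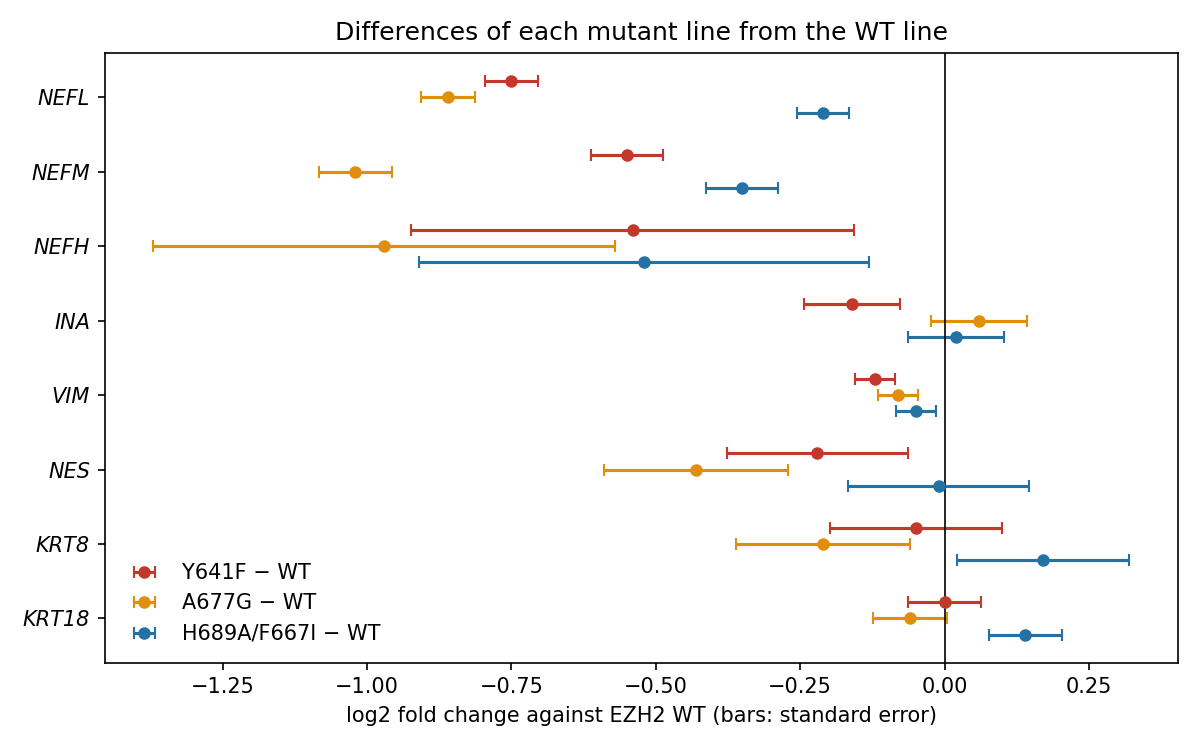
Log2 fold change of each intermediate filament gene (rows) in Y641F, A677G and H689A/F667I against WT (x axis), as points with bars of 1 SE, each line in its own colour. NEFL and NEFM lie left of 0 in all 3 lines, at -0.86 and -1.02 in A677G, and VIM lies within 0.12 of 0 in each.

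Set against each other, 1 of the 8 members, NEFM, was called higher in the Y641F line than in the A677G line, where 0.0701% of all genes were called higher, 0.014% lower and 0.0841% in either direction. The mean of the GOF lines was lower than H689A/F667I for 3 of the 8 members (12.6% of all genes called, 8.75% lower and 3.81% higher): NEFL (log2 difference -0.60, SE 0.0394), NEFM (-0.44, SE 0.0541) and KRT18 (-0.17, SE 0.0547). The KRT18 call was lost with library totals in place of trimmed mean factors and without Y641F replicate 2 or 3, A677G replicate 2 or H689A/F667I replicate 1 or 2. Without Y641F replicate 1, NES (-0.41) and KRT8 (-0.38) were called as well.

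Over the 12 samples NEFL and NEFM had a Pearson r of 0.90 on the log2 CPM scale, and 0.63 once each line's mean was removed. For KRT8 and KRT18 the values were 0.87 and 0.78. With line means removed NEFL also had 0.75 with KRT18 and 0.72 with KRT8, above its value with NEFM, and INA had -0.90 with NES and -0.86 with KRT8. These are descriptions of samples that share their lines, with no test. They include Y641F replicate 1, which stood apart. That library was the highest of its line for NEFL, NEFM, NES, KRT8 and KRT18 and the lowest for INA, so it weighs on the values with line means removed. No correlation was computed without it. The genes most like each member by the same measure, among all others with a mean of at least 1 CPM (13019, or 13020 for NEFH, itself under 1 CPM), were KCTD12 (0.982), PLA2G4A (0.979) and BARX2 (0.976) for NEFL and ZCCHC12 (0.961), IFFO2 (0.959) and KCNK2 (0.955) for NEFM. For VIM they were SERTAD4 (0.937), MFHAS1 (0.934) and TRIB2 (0.933), and for INA HSPA8 (0.914), PSMC1 (0.891) and ZNF549 (0.887). NES was closest to SP8 (0.922), CRACR2A (0.912) and XK (0.909), and NEFH to PELP1 (0.923), DNMT1 (0.856) and KLF5 (0.847). Those of KRT8 were INSIG1 (0.913), WNT10B (0.907) and TAGLN2 (0.902), and those of KRT18 UTS2R (0.897), PLXND1 (0.893) and KCNJ4 (0.892).

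Of 64 further genes of the intermediate filament family that were listed, 11 were tested. The list was drawn up with results of these data known, so its counts are no independent evidence of a change. In Y641F 1 of the 11 fell and in A677G 2 did, which is 9.09% and 18.2% of the list beside 7.68% and 8.55% of all genes, with list medians of 0.01 and 0.05 (log2) beside 0 for all genes. IFFO2, a filament-related protein of the nucleus and cytoplasm, fell in both (log2 fold change -0.25, SE 0.0629, Benjamini-Hochberg adjusted p = 0.00835 from edgeR's quasi-likelihood fit, and -0.40, SE 0.0634, edgeR adjusted p = 2.75e-05). KRT222, a keratin-like protein without a full rod, fell in A677G from 4.71 ± 0.361 to 2.83 ± 0.384 CPM (SD, n = 3; -0.73, SE 0.171, edgeR adjusted p = 0.00360). In H689A/F667I edgeR called 0 of the 11, with 0 at an unadjusted p under 0.05 and 0 by DESeq2. The lamins, which build the nuclear lamina and were the most abundant of the list, did not pass the test in any line: LMNB2 was at 442 ± 11.1 CPM in WT, 437 ± 17.2 in Y641F, 458 ± 9.91 in A677G and 439 ± 6.31 in H689A/F667I, and the log2 fold changes of LMNB1 and LMNA lay between -0.03 and 0.11. LMNB1 was called higher in A677G when only the compared groups were fitted.

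Proteins that anchor or link intermediate filaments (plakins, desmosomal proteins, nuclear envelope linkers, kinases and chaperones) were a second list, with 29 of 36 tested. It too was drawn up with such results known, and its counts are no independent evidence either. In Y641F 3 fell and 2 rose, and in A677G 4 fell and 1 rose, each 17.2% of the list beside 7.68% and 8.55% of all genes, with medians of 0.01 and 0.00. The desmosomal cadherins DSC3 and DSC2, to whose plaques keratins attach, both fell in both lines. DSC3 went from 108 ± 3.39 CPM in WT to 88.0 ± 5.22 in Y641F and 86.7 ± 1.89 in A677G (log2 fold changes -0.30 and -0.32, edgeR adjusted p = 4.98e-06 and 1.29e-06), and DSC2 changed by -0.24 and -0.21 (edgeR adjusted p = 0.00328 and 0.0104). SYNE3, the nuclear envelope protein nesprin-3 that binds plectin and so tethers intermediate filaments to the nucleus, fell by 0.73 and 0.78 on the log2 scale (edgeR adjusted p = 0.00950 and 0.00458), and SYNE1, a giant nesprin, fell in A677G by 0.30 (edgeR adjusted p = 0.0144), with -0.25 and an adjusted p of 0.0526 in Y641F. In Y641F SYNE1 was called lower in 6 of 16 alternatives, the fit without Y641F replicate 1 among them.

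PKP3, a desmosomal plaque protein of epithelia, rose in all 3 mutant lines, by 2.01, 1.60 and 1.73 on the log2 scale in Y641F, A677G and H689A/F667I (edgeR adjusted p = 0.000532, 0.00778 and 0.0458). Its level was under 1 CPM in every library, with 0.162 to 0.259 in WT, 0.840 to 0.951 in Y641F, 0.541 to 0.768 in A677G and 0.509 to 0.974 in H689A/F667I. The plakin DST rose in Y641F by 0.17 (edgeR adjusted p = 0.0182), a call that was lost without Y641F replicate 1, WT replicate 1 or WT replicate 2. The most abundant of the list per length, the lamin B receptor LBR, emerin (EMD) and the neurofilament kinase CDK5, had log2 fold changes of -0.08 to 0.05 and did not pass the test. Without Y641F replicate 1 the fit called 4 of the list lower and 1 higher in Y641F. The DSC2 call in A677G was lost without WT replicate 2, A677G replicate 1 or A677G replicate 2, that of SYNE1 without WT replicate 3 or A677G replicate 2, the PKP3 call in A677G without WT replicate 1, the SYNE3 call in Y641F without Y641F replicate 2, and that of PKP3 in H689A/F667I in 7 of 15 alternatives.

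Genes of the neuronal cytoskeleton and of neuronal identity other than intermediate filaments were the third list, with 28 of 35 tested. In this list 15 fell and 2 rose in Y641F (60.7% called, median -0.27), 13 fell and 0 rose in A677G (46.4%, median -0.20), and 1 fell in H689A/F667I (3.57%, median 0.02). The medians over all genes were 0, and the shares of all genes called were 7.68%, 8.55% and 0.301%. This list was also drawn up with results of these data known, so its counts are no independent evidence of a direction. Without Y641F replicate 1, 14 fell and 0 rose in Y641F. The list includes TUBB3 and RBFOX3, which are also among the neural markers, and BASP1 and TUBA1A, which the study names from these samples. In both RNA-Seq and proteomics it reports BASP1 as lower in Y641F and TUBA1A as higher in A677G. Here BASP1 had a log2 fold change of -0.46 in Y641F (edgeR adjusted p = 0.000117) and -0.09 in A677G (edgeR adjusted p = 0.566).

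DPYSL3, a collapsin response mediator protein of growing axons, was lower in all 3 mutant lines. It was at 66.5 ± 1.31 CPM in WT, 36.1 ± 0.976 in Y641F, 36.0 ± 1.31 in A677G and 55.3 ± 0.780 in H689A/F667I (log2 fold changes -0.88, -0.89 and -0.27, edgeR adjusted p = 1.68e-15, 6.91e-16 and 0.00304). The growth cone protein GAP43 fell by 1.07 and 1.67 on the log2 scale in Y641F and A677G (edgeR adjusted p = 0.0255 and 0.000562) from 1.80 ± 0.431 CPM in WT, and INSM1, a zinc finger factor of neuroendocrine and neuronal progenitors, fell by 1.04 and 0.74 (edgeR adjusted p = 4.48e-05 and 0.00248). In H689A/F667I INSM1 had a log2 fold change of -0.61 (SE 0.167, edgeR adjusted p = 0.144). It was called there with the exact test only. RBFOX3, which encodes the neuronal nuclear antigen NeuN, fell in Y641F by 0.87 (edgeR adjusted p = 0.0455) from 1.66 ± 0.375 CPM, a call lost in 9 of 16 alternatives, replicate 1 left out among them. Its log2 fold change was -0.73 in A677G (edgeR adjusted p = 0.0979, called with the exact test only) and -0.62 in H689A/F667I (edgeR adjusted p = 0.517). GAP43 in Y641F lost its call without WT replicate 1 or 2 or Y641F replicate 2 or 3.

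UCHL1, the neuronal deubiquitinase and the most abundant of this list per length, fell from 168 ± 2.82 CPM in WT to 138 ± 2.58 in Y641F and 138 ± 1.92 in A677G (log2 fold changes -0.28 and -0.29, edgeR adjusted p = 1.07e-06 and 6.77e-07), and was at 171 ± 3.85 in H689A/F667I. The tubulin TUBA1A (0.10 and 0.12) and the stathmin STMN3 (-0.01 and 0.05) did not pass the test in either GOF line. For TUBA1A in A677G (edgeR adjusted p = 0.0954) this differs from the study, which reports it as higher there. TUBA1A was called higher in A677G when only the compared groups were fitted. The 2 genes that rose in Y641F were the ankyrin ANK2 (0.24, edgeR adjusted p = 0.0161) and REST, the repressor of neuronal genes (0.16, edgeR adjusted p = 0.0328). Both calls were lost without Y641F replicate 1 and without WT replicate 2 or 3, that of REST also without Y641F replicate 3, with only the compared groups, with upper-quartile factors and with the GC trend removed.

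**Figure D4:**
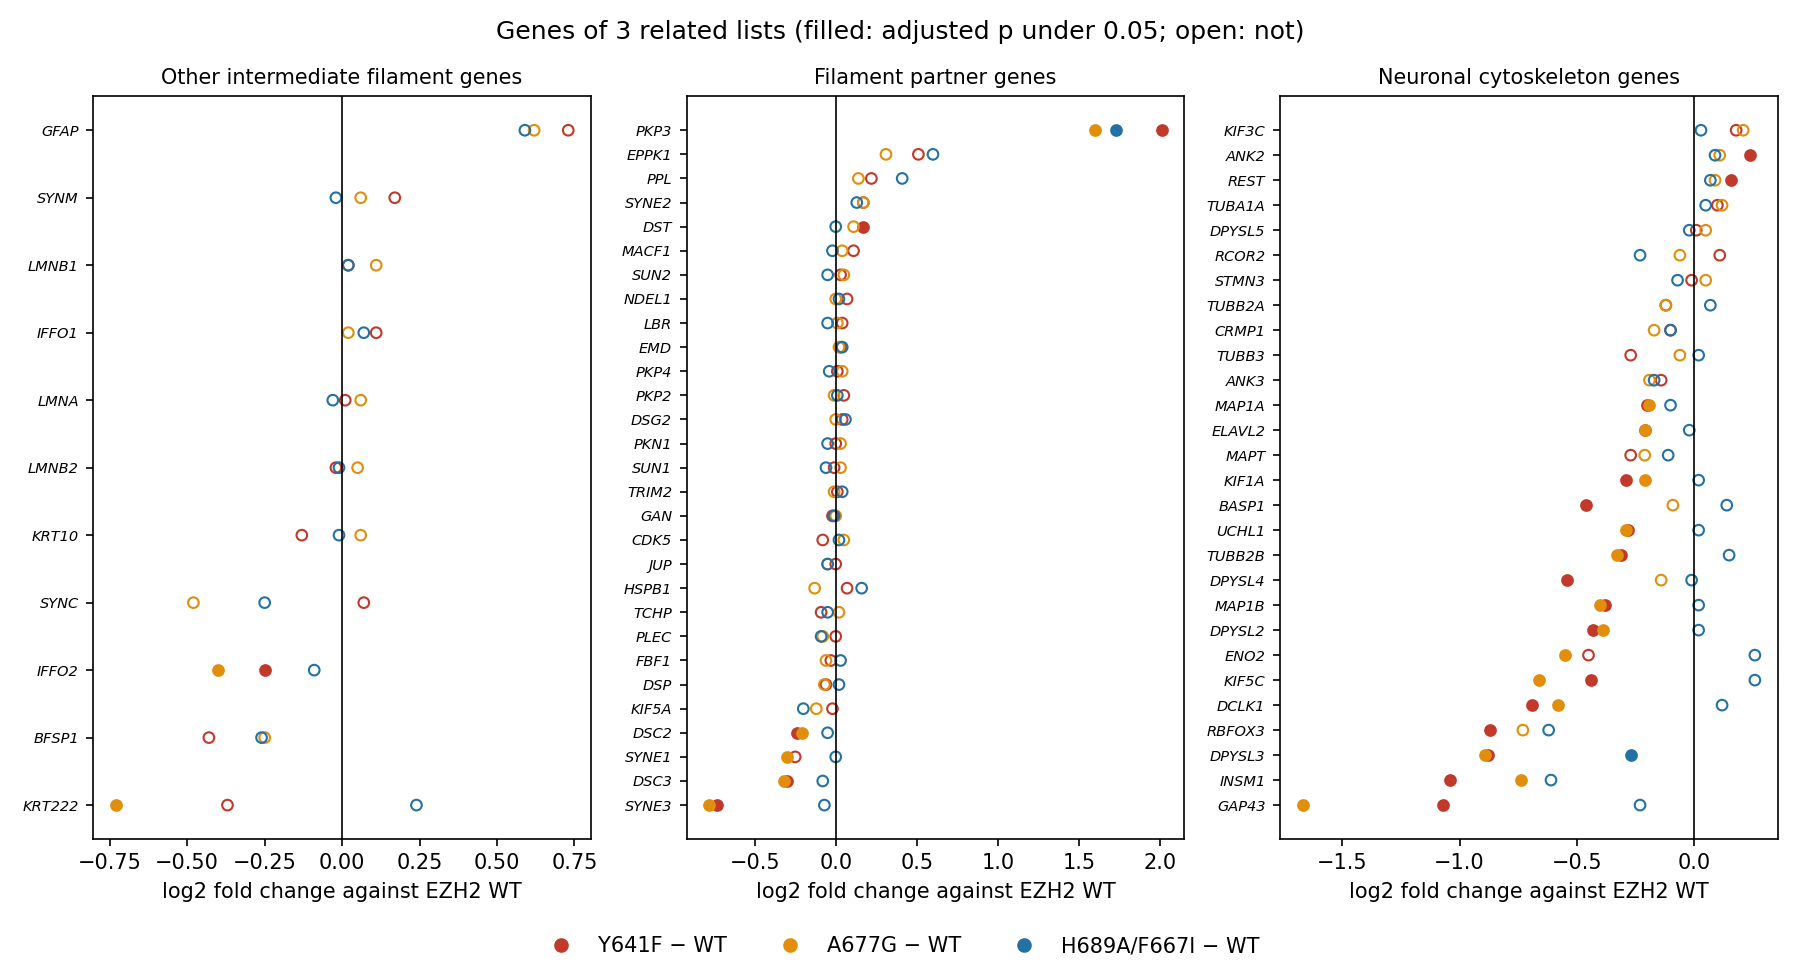
Log2 fold change against WT (x axis) of each tested gene (rows) of the other intermediate filament genes, the filament partner genes and the neuronal cytoskeleton genes, in Y641F, A677G and H689A/F667I by colour, filled where edgeR's adjusted p was under 0.05. Most filled points of the neuronal panel lie left of 0 and belong to the GOF lines, while the lamins and LBR lie near 0.

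Of the genes next to NEFL and NEFM, none passed the test in both GOF lines. STC1, a secreted glycoprotein hormone whose gene is the nearest tested on one side of the NEFM and NEFL pair at 1060 kb, fell in A677G (log2 fold change -1.33, SE 0.342, edgeR adjusted p = 0.00901), with -0.57 and an adjusted p of 0.344 in Y641F. Its A677G call was lost without WT replicate 2 or 3 or A677G replicate 1. DOCK5, a guanine nucleotide exchange factor 228 kb away on the other side, had log2 fold changes of 0.09 in Y641F and -0.14 in A677G (edgeR adjusted p = 0.635 and 0.365). Of the 52 genes tested within 5 Mb of the pair, 6 fell and 1 rose in Y641F (13.5%, beside 7.68% of all genes) and 9 fell and 1 rose in A677G (19.2%, beside 8.55%), with medians of -0.05 and -0.03. In H689A/F667I edgeR called 0 of them, with 5 at an unadjusted p under 0.05. Such shares were not particular to this pair. Of the 37 genes tested within 5 Mb of VIM, 10.8% were called in Y641F and 21.6% in A677G. Around NEFH, INA, NES, KRT8 and KRT18 the shares called were 3.88% to 7.79% in Y641F and 3.9% to 6.2% in A677G.

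Beside INA, the magnesium transport mediator CNNM2 at 187 kb rose in both GOF lines (0.31 and 0.30 on the log2 scale, edgeR adjusted p = 0.00357 and 0.00381), and the Polycomb ring finger gene PCGF6 at 12.4 kb had -0.07 and 0.01 (edgeR adjusted p = 0.496 and 0.971). Beside NES, the retinoic acid binding protein CRABP2 at 22.2 kb fell in A677G (-0.36, edgeR adjusted p = 0.0177), a call lost without WT replicate 1 or 2 or A677G replicate 2. No gene beside NEFH, VIM, KRT8 or KRT18 passed the edgeR test in any mutant line.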

How the data were processed

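RNA-Seq of polyadenylated RNA was analysed in 12 samples, 3 of each EZH2 line, grouped by the labels. Gene counts were deposited by the authors as whole numbers, not normalized. Per the labels and the methods, reads were trimmed with Trim Galore 0.6.5 and aligned to GRCh38 with STAR 2.7.9a, and abundance was estimated with Salmon 1.2.0 on a GENCODE transcriptome. How estimates became whole-number gene counts is not given in the sources used here. Left out were 175 genes with no count in the A677G line or in the H689A/F667I line.

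Counts were fitted with edgeR 4.0.16 in R 4.3.3 (trimmed mean factors, quasi-likelihood test, 1 coefficient a line over all samples). P-values were Benjamini-Hochberg adjusted over all 14263 genes, and a gene was called at an adjusted p under 0.05. The scripts were tested on simulated data. Log2 CPM used a prior count of 2. RPKM used Ensembl canonical transcript lengths, and 356 symbols had no match in the annotation.

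The members and gene lists were chosen with earlier results of these data known. Named were all members. From each list, up to 4 genes called lower and up to 4 called higher in a GOF line were named by mean change, with those called in H689A/F667I and the 3 most abundant per length. Named as well were the 3 genes most like each member, and flanking genes that were called or beside NEFL, NEFM and INA. Alternatives were other scalings and filters, DESeq2 1.42.0, edgeR's exact test, fits on the compared groups only, a replicate block, a GC correction and each library left out.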

Additional observations from a re-analysis of the deposited data

How the results depend on the processing

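None of the 651 alternative log2 fold changes of the members moved beyond the spread between replicates. The alternatives refit the same libraries, so they could hardly move that far, and the count says little. With a library left out, the log2 fold change in Y641F against WT ran from -0.21 to 0.06 for KRT8 and from -0.40 to -0.11 for NES. For NEFL it ran from -0.80 to -0.72. NEFH has no value with at least 10 counts in every sample. Of the counts of calls over the members and lists, these moved by over 1.5 times. In H689A/F667I, members called went from 2 to 1 with DESeq2 and to between 0 and 2 with a library left out. For the mean of the GOF lines against H689A/F667I, members called were 2 to 5 with a library left out, with 5 without EZH2 Y641F replicate 1. Other intermediate filament genes called in Y641F were 2 with upper-quartile factors, DESeq2 and the exact test. Filament partner genes called in A677G were 3 to 5 with a library left out, with 3 without A677G replicate 2, and in H689A/F667I they were 0 with library totals, 0 with at least 10 counts in every sample, 2 with only the compared groups and 0 to 1 with a library left out. Neuronal cytoskeleton genes called in H689A/F667I were 2 with the exact test. The cause of these changes was not tested. Replicate numbers did not pair the samples (18 same-number pairs, r of -0.056 to 0.05, and 5 correlated best with their own number). With the replicate block, filament partner genes called were 0 in H689A/F667I, and members called were 3, 2 and 2 in Y641F, A677G and H689A/F667I as without it. Over all genes, the 43 calls in H689A/F667I became 169 without the gene filter, 76 with the exact test and 86 with only the compared groups, and 11, 12, 17, 19 and 25 without H689A/F667I replicate 1, WT replicate 1, WT replicate 2, H689A/F667I replicate 2 and WT replicate 3. The 12 calls between Y641F and A677G became 178 without the filter, 23 with the exact test, and 57 and 21 without Y641F replicates 2 and 3. The 1095 calls in Y641F became 703 without WT replicate 2. The share of lower calls in H689A/F667I went from 53.5% to 82.2% without the filter and 64.5% with library totals, and between Y641F and A677G from 16.7% to between 8.43% and 39.1% over the 10 other settings. The exact test was not run for the mean of the GOF lines. Depth limits NEFH, at 9 to 38 counts a library, and PKP3, under 1 CPM.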
